A study of Mus musculus with 6 samples.

Results

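Cholesterol enters and leaves a cell through a small set of well known genes, and 29 of them are described here in mouse alveolar type II (ATII) cells, the cells that make lung surfactant. The 29 genes were taken by symbol from the GENCODE mouse annotation of GRCm38, out of 52636 gene IDs in a single-cell matrix. They comprise 18 enzymes of synthesis, 4 regulators, 5 genes of uptake, lysosomal egress, carrying and storage, and 2 exporters. The study set out to follow how ATII cells of young and old mice answer IL-4, a type 2 cytokine, when they grow as alveolarspheres in a culture free of serum and feeder cells. Per the labels, there were 3 expression libraries: alveolarsphere cells from young and old mice at day 13, alveolarsphere cells from young mice alone at day 13, and ATII cells fresh from the sort, young and old together, at day 0. Every library was described as a mixed sample of mice with a wild-type IL-4 receptor alpha genotype, and 3 more libraries held the tags that mark pooled animals or wells. Cytokine at 10 ng/ml was added on day 3, with PBS in control wells. The design text numbers the interleukin differently from the title, which has IL-4.

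Cells build cholesterol from acetyl-CoA through mevalonate, isoprenoid units, squalene and lanosterol. When membranes of the endoplasmic reticulum run short of sterol, the Scap protein escorts the Srebf2 precursor away from its Insig anchors, and the released factor switches on most genes of the pathway together. Sterol taken up with lipoproteins leaves the lysosome through Npc2 and Npc1, is carried by proteins such as Stard4, is stored as esters by Soat1, and is exported by Abca1 and Abcg1. ATII cells package cholesterol with phospholipid into surfactant.

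The barcodes carried 3 library tokens that match no label, so they appear here as libraries A, B and C by order of first appearance, of unknown age, treatment and day. The deposited values were UMI counts, in which each UMI stands for a captured RNA molecule. After filtering, library A kept 16367 cells with a median of 3749 UMIs, library B 5593 cells with 8349 and library C 14580 cells with 3341. Libraries A and B shared 20 cell barcodes, A and C 67, and B and C 22. Each group has 1 library in the labels and cells are not replicates, so no test was run, and the exact 95% intervals given hold counting error alone. Levels are counts per 1000000 UMIs (CPM) summed over cells, which in data from the 3′ end of transcripts are not divided by gene length. Between classes of cells, a gene was called higher or lower at 1.5-fold with at least 20 CPM in either class. All 14 ATII markers were detected in every library, while the summed macrophage, ciliated and fibroblast markers stayed at or under 13.6 CPM in every class of cells compared. Airway secretory markers summed to 1822 to 2965 CPM over the classes of library A and to 18.02 to 199 CPM over those of B and C. Endothelial markers summed to 51.3 to 151 CPM in classes of library A and to at most 1.43 CPM in B and C. Markers of other leukocytes summed to 17.1 to 41.6 CPM in A and 5.66 to 31.9 CPM in B and C. The macrophage markers Marco, Siglecf and Ear2 were at 0 in every comparison.

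The promoters of 4 members show what some pathway genes share in sequence. Windows of 300 bases (250 before the start of transcription and 50 after it; RefSeq, GRCm38.p6) were at hand for 22 of the 29 members, 15 of them synthesis genes. They were searched on both strands for the core of a sterol regulatory element (TCACNCCAC), for the CCAAT box that binds NF-Y, a partner of SREBP factors, and for the E-box CACGTG. None of these 3 motifs overlapped another in the windows printed. Capitals mark the matches, and each sequence reads 5′ to 3′ on the strand of its gene. Idi1 and Dhcr7 are printed because they were called in both libraries B and C, between dividing and other cells for Idi1 and between Retnla quartiles for Dhcr7; Stard4, also called in both between dividing and other cells, is named without a sequence. Hmgcs1 and Ebp were added after their values were seen, as a gene that moved with the pathway in library A and a gene that did not.
Hmgcs1 (chr13:119690101-119690400, plus strand): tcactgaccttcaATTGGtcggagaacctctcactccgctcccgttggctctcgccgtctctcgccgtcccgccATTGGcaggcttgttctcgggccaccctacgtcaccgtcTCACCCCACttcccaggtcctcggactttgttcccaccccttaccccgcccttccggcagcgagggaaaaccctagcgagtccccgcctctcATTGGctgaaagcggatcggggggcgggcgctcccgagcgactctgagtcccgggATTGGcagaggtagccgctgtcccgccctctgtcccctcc
Idi1 (chr13:8885356-8885655, plus strand): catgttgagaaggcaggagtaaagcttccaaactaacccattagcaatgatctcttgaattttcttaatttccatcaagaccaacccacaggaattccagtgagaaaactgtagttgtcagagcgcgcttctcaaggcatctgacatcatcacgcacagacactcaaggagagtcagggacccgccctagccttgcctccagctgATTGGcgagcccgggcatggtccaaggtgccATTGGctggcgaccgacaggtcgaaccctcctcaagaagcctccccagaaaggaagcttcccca
Dhcr7 (chr7:143829964-143830263, plus strand, the last of 3 windows): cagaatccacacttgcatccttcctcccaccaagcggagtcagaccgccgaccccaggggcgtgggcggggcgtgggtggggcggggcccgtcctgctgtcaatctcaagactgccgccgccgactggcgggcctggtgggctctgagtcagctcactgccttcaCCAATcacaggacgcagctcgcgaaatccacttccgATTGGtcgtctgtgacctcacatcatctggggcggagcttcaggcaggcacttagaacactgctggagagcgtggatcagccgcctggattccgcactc
Ebp (chrX:8193463-8193762, minus strand): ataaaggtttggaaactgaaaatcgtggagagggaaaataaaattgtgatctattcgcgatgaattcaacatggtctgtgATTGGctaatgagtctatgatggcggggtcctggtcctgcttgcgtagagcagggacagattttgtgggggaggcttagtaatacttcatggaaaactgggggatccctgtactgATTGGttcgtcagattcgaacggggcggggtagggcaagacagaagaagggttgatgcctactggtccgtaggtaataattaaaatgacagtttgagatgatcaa
Ebp carries 2 CCAAT boxes, as Idi1 and the printed Dhcr7 window do. The other two Dhcr7 windows hold 0 CCAAT boxes and 1 E-box between them. Hmgcs1 carries 4, along with the only match to the sterol element core among the member windows. A CCAAT box was found in 14 of the 15 synthesis genes with a window, against 41.1% of all genes with one, and in 19 of the 22 members. The sterol element core was found in 1 of the 22 members, against 1.44% of all genes with a window, and CACGTG in 6 of the 22, against 8.09% of all genes. A match describes letters, and binding was not measured.

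Most members had their highest level in library A, as did many other genes. Of the members with at least 20 CPM in any library, 21 of 25 were highest in A, beside 49.3% of 6060 genes, and 18 had an interval there that lay above both other libraries, beside 46.8%. Among the 17 synthesis genes at that level 13 were highest in library A, and 11 had such an interval. Hmgcs1 (chr13:119690379-119708260), which makes the substrate of mevalonate synthesis, stood at 285, 34.5 and 42.1 CPM in A, B and C. Idi1 (chr13:8885501-8892451), which isomerises the isoprenoid unit, had 218, 55.3 and 49.4 CPM. Pmvk, a mevalonate pathway kinase, had 301, 96.2 and 137 CPM. For these genes library A stood apart from both others, and the order of B and C differed from gene to gene.

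The same order held along the squalene and lanosterol steps. Squalene synthase Fdft1 had 76.2, 30.8 and 34.9 CPM in A, B and C, squalene epoxidase Sqle 70.0, 26.5 and 24.7, and lanosterol synthase Lss 23.5, 9.74 and 8.61. The demethylating enzymes Cyp51, Msmo1, Nsdhl and Hsd17b7 stood at 128, 122, 40.3 and 27.8 CPM in library A, at 37.7, 44.2, 23.0 and 5.20 in library B and at 42.3, 49.3, 27.3 and 5.55 in library C. Sc5d, a late desaturase, had 52.5, 31.6 and 32.5 CPM. These 8 enzymes were all highest in library A, with B and C close to each other.

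Several steps did not share this order in CPM over all UMIs. Ebp, the isomerase that shifts a double bond in the sterol ring, had its lowest level in library A (27.5 CPM) and its highest in library C (61.4 CPM), with 47.1 CPM in library B. Dhcr7, a late reductase, ran the same way at 16.1, 18.2 and 23.3 CPM in A, B and C, with overlapping intervals in A and B. Fdps, which joins isoprenoid units to farnesyl diphosphate, was nearly level at 97.9, 90.1 and 92.9 CPM, and the sterol reductase Tm7sf2 at 8.53, 9.84 and 8.61 CPM. Acat2, which starts the pathway, had 52.7, 31.7 and 54.7 CPM, so that the intervals of A and C overlapped. The kinase Mvk (30.6, 23.7 and 29.2 CPM) and the decarboxylase Mvd (30.4, 24.2 and 31.2 CPM) also overlapped between A and C, with B below. ATII markers took a larger share of UMIs in A. They summed to 344944, 172895 and 151624 CPM in cells of A, B and C without Mki67 or Top2a UMIs. Levels of single genes with such abundant transcripts left out of the totals are not given, and the orders of close levels may depend on that choice.

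**Figure D1:**
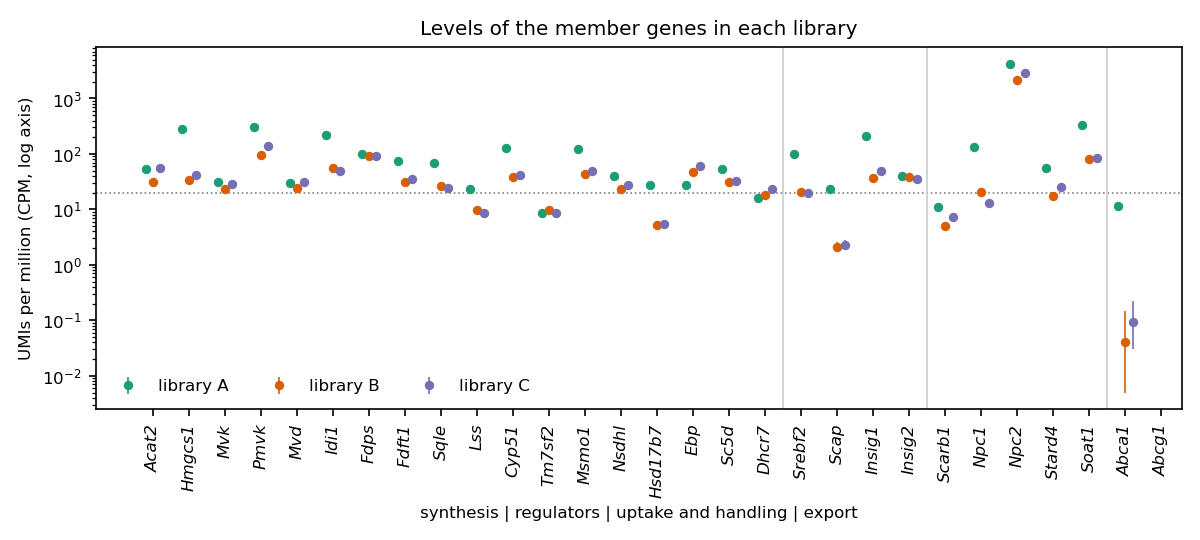
Level of each of the 29 members in libraries A, B and C, as UMIs per 1000000 on a log axis, with exact 95% Poisson intervals of the counts; grey lines part the roles and the dotted line marks 20 CPM. Abcg1 had 0 UMIs and is not drawn. Library A lies highest for most members, while Ebp is lowest there. Dhcr7 is highest in library C, with overlapping intervals in A and B.

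All 4 regulators had their highest level in library A, as did 49.3% of all genes, and Insig2 overlapped with library B. Srebf2, the factor that drives the pathway, had 98.3, 20.4 and 19.9 CPM in A, B and C. Its escort Scap had 22.9, 2.14 and 2.33 CPM. Insig1, the anchor that is itself a target of the factor, stood at 214, 37.0 and 48.3 CPM, while Insig2 stood at 39.9, 37.9 and 35.1 CPM. Insig1 thus differed between libraries far more than its paralog.

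The 5 genes of uptake and handling were each highest in library A, 4 of them at 20 CPM or more, where 49.3% of all genes were also highest in A. Npc2 (chr12:84754562-84773152), the soluble lysosomal carrier, reached 4263, 2125 and 2889 CPM in A, B and C. Its membrane partner Npc1 had 133, 20.7 and 12.8 CPM. Soat1, which esterifies cholesterol for storage, had 338, 82.7 and 84.8 CPM, and the sterol carrier Stard4 54.7, 17.8 and 25.4 CPM. Scarb1, a lipoprotein receptor, had 11.1, 5.07 and 7.35 CPM. Between libraries B and C the partners ran in opposite order, with Npc1 higher in B and Npc2 higher in C.

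The exporters were scarce. Abca1 had 735 UMIs in library A (11.5 CPM), 2 in library B (0.04 CPM) and 5 in C (0.09 CPM). Abcg1 was listed at 0 UMIs in all 3 libraries, where 3 counts would have been 0.0471, 0.0616 and 0.0563 CPM in A, B and C. Summed over the 18 enzymes, synthesis took 1608, 639 and 755 CPM, and 2273, 760 and 891 CPM once Retnla and 4 surfactant protein genes were left out of the totals. Libraries that match no label allow no statement on which condition these levels belong to.

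Within library A the synthesis genes varied together from cell to cell. Each cell was thinned to 2000 UMIs, and each gene was compared between cells in the top and bottom quartile of the UMIs of the other 17 synthesis genes, so that no gene took part in its own split. Cells under 2000 UMIs were left out, 288 in library A, 29 in B and 1289 in C. Because UMIs per cell are whole numbers, the groups at or past the quartiles held 5877 and 4770 cells in library A when all 18 genes set the split, 1871 and 1778 in B, and 5511 and 3491 in C. Of the 17 synthesis genes past 20 CPM in library A, 16 were higher in the top quartile, beside 0.584% of the 5136 other genes. Their median log2 fold over all 17 was 1.24, beside -0.02 over those other genes. The exception was Ebp, at 29.2 CPM in the top and 26.6 CPM in the bottom quartile (log2 fold 0.13, interval -0.03 to 0.30). Of the 16 called, Mvd, Lss, Hsd17b7 and Dhcr7 reached 20 CPM in the top quartile alone and so entered the set through it.

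The enzymes spanned the whole pathway. Mvd had 46.4 CPM in the top and 16.0 CPM in the bottom quartile of library A (1.48, interval 1.35 to 1.72), and Msmo1 had 184 and 67.6 CPM (1.43, 1.35 to 1.54). Hmgcs1 had 436 and 185 CPM (1.24, 1.19 to 1.30), and Dhcr7 had 23.9 and 8.68 CPM (1.36, 1.21 to 1.73). The smallest of the 16 changes were those of Mvk (0.86) and Acat2 (0.87). Dhcr7 followed the other enzymes within library A although its level there was below that of library C. Ebp, lowest in library A, did not follow them.

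Genes outside the split moved with it in part. Insig1 was higher, at 278 CPM in the top and 149 CPM in the bottom quartile of library A (0.89, interval 0.83 to 0.96), and so was Stard4, at 73.7 and 36.5 CPM (0.99, 0.88 to 1.15). Srebf2 (113 and 83.8 CPM, 0.43) and Scap (27.4 and 18.1 CPM, 0.57) fell short of 1.5-fold with intervals above 0. Insig2 (-0.04), Npc1 (-0.03) and Soat1 (0.07) had nearly equal levels in both quartiles, and Npc2 had 4751 and 3759 CPM (0.34). The carrier and the anchor known as targets of the factor thus passed the rule, and the handling genes of the lysosome and of ester storage did not.

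The exporter Abca1 had 8.83 CPM in the top and 15.02 CPM in the bottom quartile of library A (log2 fold -0.70, interval -1.03 to -0.50), below the 20 CPM that a call needs. Of 10 fatty acid genes past 20 CPM, Scd1, the main desaturase (4037 and 2517 CPM, 0.68), and Fads1 (87.4 and 54.1 CPM, 0.68) were higher, and none was lower. ATII markers summed to 345664 CPM in the top and 343213 CPM in the bottom quartile, transitional markers to 1963 and 2381 CPM, and airway secretory markers to 2558 and 2965 CPM. Proliferation markers summed to 16.3 CPM in the top and 35.2 CPM in the bottom quartile, and endothelial markers to 76.7 and 103 CPM. Their part in the result was not tested.

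In libraries B and C the same split gave smaller folds, a difference between libraries that was not tested. Of 15 synthesis genes past 20 CPM, 0 were called higher in library B, beside 1.26% of other genes, and 2 were called in C, beside 1.43%. Those 2 genes were Idi1, at 58.9 CPM in the top and 38.9 CPM in the bottom quartile (0.59), and Msmo1, at 60.5 and 39.3 CPM (0.61). Intervals lay above 0 for 15 of 15 genes in library B, beside 27.1% of 4621 other genes, and for 14 of 15 in C, beside 30.0% of 4553. The medians were 0.46 and 0.45, beside 0.05 and 0.05 over those other genes. Ebp was the smallest in both, at 0.20 in library B and 0.03 in C. Stard4 had 0.44 and 0.50, and Insig1 0.48 and 0.31. Npc2 ran the other way, with -0.18 in library B and -0.33 in C.

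The spread of synthesis UMIs per cell showed the same contrast. At 2000 UMIs per cell, cells of library A held a mean of 3.17 synthesis UMIs with a variance 2.12 times that mean, those of library B a mean of 1.24 with 1.21 times, and those of library C a mean of 1.46 with 1.19 times. Fewer UMIs sort cells less sharply, so the split was also run at depths where the means are closer. Library A thinned to 1000 UMIs held 1.58 synthesis UMIs per cell, near the mean of library C at 2000, and 16 of its 17 genes were called (median 0.95), beside 0.293% of other genes. Library B thinned to 5000 UMIs, a depth chosen after seeing the data, held 3.17 per cell, and 4 of its 15 genes were called (median 0.42), beside 1.38%. The variance over the mean was 1.57 for library A at 1000 UMIs, 1.35 for library B at 5000 and 1.19 for library C at 2000. In libraries B and C, dividing cells made up 30.1% of the top and 21.5% of the bottom quartile in B, and 22.7% and 14.2% in C. Without dividing cells 1 synthesis gene was called in library B and 3 in C, a setting with no share of all genes given. The part of dividing cells was not tested further.

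**Figure D2:**
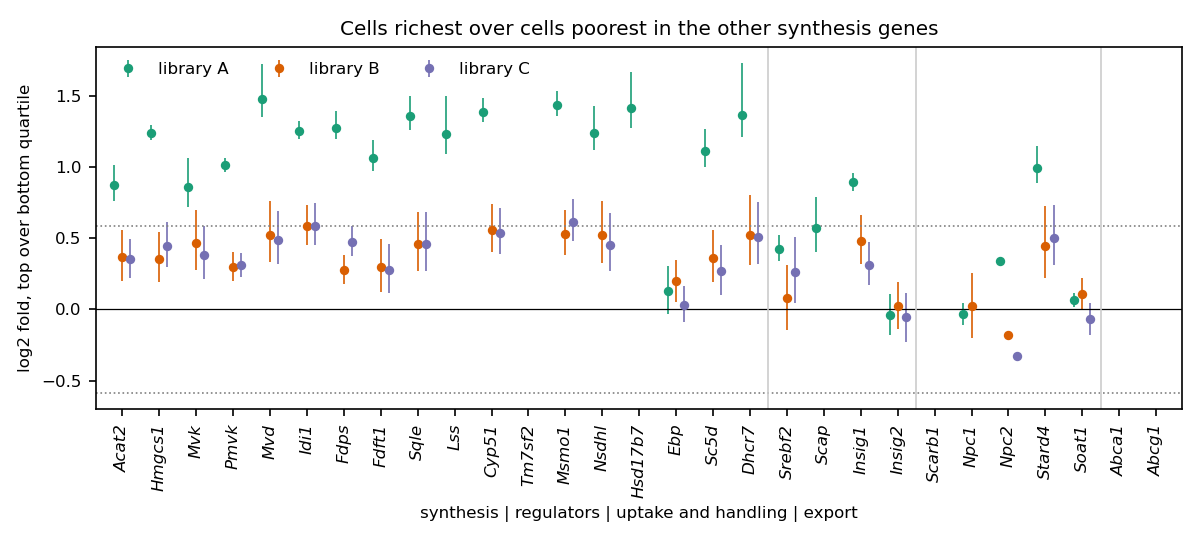
Log2 fold of each member between cells in the top and the bottom quartile of the other synthesis genes, with exact counting intervals, for libraries A, B and C; dotted lines mark 1.5-fold and members under 20 CPM are not drawn. Library A lies above libraries B and C for all synthesis genes drawn other than Ebp, and Insig1 and Stard4 lie with the enzymes.

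Dividing cells, taken as cells with any UMI of the mitotic genes Mki67 or Top2a, were set against the other cells of their library. Library B had 1512 dividing and 4081 other cells, and library C 2558 and 12022. In library B 2 of 21 members past 20 CPM were higher, beside 8.55% of 4913 genes, and 0 were lower, beside 0.977%. In library C 6 of 21 were higher, beside 18.3% of 5032 genes, and 1 was lower, beside 3.46%. The members called higher were 9.52% in library B, close to the share of all genes, and 28.6% in C, above it. The excess in library C was not kept when both classes were weighted to the same spread of UMIs per cell, as given below.

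Idi1 and Stard4 were higher in both. Idi1 had 72.9 CPM in dividing and 46.6 CPM in other cells of library B (log2 fold 0.63, interval 0.53 to 0.75), and 72.8 and 41.7 CPM in library C (0.79, 0.69 to 0.92). Stard4 had 24.7 and 14.4 CPM in library B (0.74, 0.58 to 0.98), and 36.1 and 21.8 CPM in C (0.70, 0.56 to 0.89). In library B Stard4 reached 20 CPM in dividing cells alone, the class in which it was high. The other 4 members called in library C were Hmgcs1 (57.6 and 37.0 CPM, 0.63), Mvk (39.5 and 25.8 CPM, 0.60), Sqle (33.6 and 21.8 CPM, 0.60) and Cyp51 (57.3 and 37.3 CPM, 0.61). In library B these 4 had log2 folds of 0.34 to 0.47, short of the rule. They act early, in the middle and late in the pathway. Of the lists set beside the members, 0 of 4 other sterol genes were called in either library. Of 9 fatty acid genes 0 were called in library B, while in C Acaca, the carboxylase that commits carbon to fatty acids, was higher (33.5 and 21.8 CPM, 0.60) and Elovl1 was lower (131 and 217 CPM, -0.72).

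The synthesis genes as a list had a median log2 fold of 0.28 in library B and 0.28 in C, beside 0.15 and 0.19 over all genes tested. The mevalonate pathway enzymes Mvd (0.15 and 0.06) and Fdps (-0.00 and 0.16) had little difference in libraries B and C. The factor Srebf2 had 23.5 CPM in dividing and 18.9 CPM in other cells of library B (0.30), and 26.0 and 17.8 CPM in library C (0.52), without a call. Insig1 had 0.33 and 0.28, and Insig2 -0.17 and -0.00.

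Npc2 was the only member called lower. It had 1979 CPM in dividing and 3190 CPM in other cells of library C, where it was lower (log2 fold -0.69, interval -0.71 to -0.67), and 1795 and 2287 CPM in library B (-0.35), without a call. Its partner Npc1 had 22.04 and 20.02 CPM in library B (0.13) and was under 20 CPM in library C. Soat1 had 0.26 and 0.04 in libraries B and C.

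**Figure D3:**
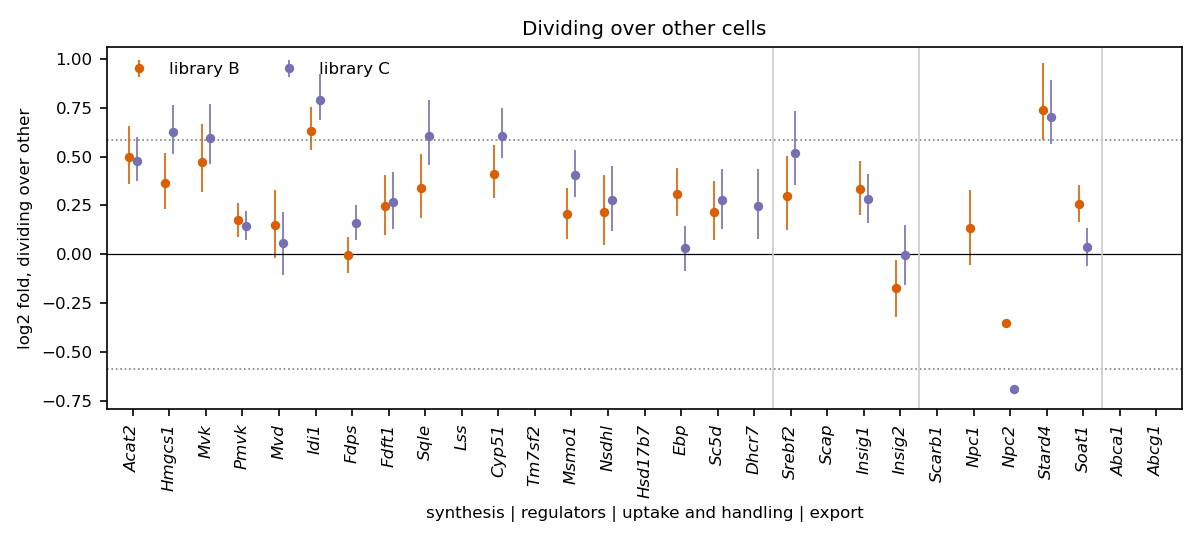
Log2 fold of each member between dividing and other cells in libraries B and C, with exact counting intervals; dotted lines mark 1.5-fold and members under 20 CPM in both classes are not drawn. Idi1 and Stard4 pass 1.5-fold upward in both libraries, and Npc2 passes it downward in library C.

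Other measures differed between the classes too. Dividing cells had a median of 10267 UMIs and other cells 7741 in library B, and 5214 and 3141 in C. Transitional markers summed to 2092 CPM in dividing and 2888 CPM in other cells of library B, and to 1938 and 2805 CPM in library C; ATI markers summed to 1022 and 1467 CPM, and to 1197 and 2607 CPM. The part of these measures in the result was not tested, other than for depth. With both classes weighted to the same spread of UMIs per cell, 1 member of library C was still called, Idi1 (0.69), and Npc2 had -0.44. Of 4935 genes 609 were higher and 77 lower in that setting, so the members called were no longer above the share of all genes. With TMM factors the median of all genes moved to -0.06 in library B and -0.10 in C, which left 0 members called in library B and only Npc2 (-0.96) in library C. That scaling turned the split of all genes called, 420 higher and 48 lower in library B, into 252 and 121, and that of library C, 920 and 174, into 423 and 472.

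Library A held 171 dividing and 16196 other cells by the same rule. Of 25 members past 20 CPM, 1 was higher, Ebp (42.2 and 27.3 CPM, 0.61, interval 0.07 to 1.14), beside 7.8% of 5591 genes, and 0 were lower, beside 1.99%. The synthesis genes had a median log2 fold of -0.19, beside 0.07 over all genes. The 149 cells with exactly 1 such UMI held 30.8 CPM of 8 other proliferation markers, beside 15.1 CPM in cells with none. The 22 cells with at least 2 held 3053 CPM of them.

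In those 22 cells the synthesis genes summed to 812 CPM (interval 657 to 993), beside 1610 CPM in the cells of library A with no such UMI, a log2 fold of -0.99 (-1.29 to -0.70) on 95 UMIs. The cells had 225745 CPM of ATII markers, beside 344944 CPM, 3352 CPM of transitional markers, beside 2134 CPM (log2 fold 0.65, interval 0.51 to 0.79), and 2446 CPM of airway secretory markers, beside 2575 CPM. The part of these differences in the lower synthesis sum was not tested. Among the members 16 were lower and 2 higher by the rule. Of 6574 genes past 20 CPM in either class, 14.3% were lower and 44.0% higher. The 22 cells held 116933 UMIs in all, so a few UMIs there carried a gene past 20 CPM. Genes could thus enter that set by being high in the small class. These shares are therefore no fair background for the member counts, and no comparison is drawn from them. With so few UMIs single members are not given.

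Retnla, which encodes a secreted protein known as a target of type 2 cytokines in mouse, took a widely varying share of the UMIs of a cell in libraries B and C. Cells were ranked by that share and cut into quartiles, with 1399 cells in the top and 1399 in the bottom quartile of library B, and 3645 and 3645 in library C. Between these quartiles 3 of 21 members past 20 CPM were higher in library B, beside 5.4% of 4854 genes, and 2 of 20 in library C, beside 4.44% of 4734 genes. Among those called, Dhcr7 in both libraries and Npc1 in library B reached 20 CPM in the top quartile but not in the bottom. They thus entered the tested set through the class in which they were high, and the counts only describe. In both libraries 0 members were lower, beside 12.2% and 10.1% of genes. The synthesis genes had medians of 0.31 and 0.18, beside -0.15 and -0.15 over all genes.

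Dhcr7 was higher in both libraries, where it passed 20 CPM in the top quartile and not in the bottom. From the bottom to the top Retnla quartile it had 13.1, 14.5, 20.3 and 23.3 CPM in library B, and 18.2, 16.5, 27.4 and 29.6 CPM in library C. Between the top and bottom quartile its log2 fold was 0.78 (interval 0.53 to 1.13) in library B and 0.67 (0.46 to 0.93) in library C. The gene thus stood higher in both upper quartiles than in both lower ones.

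Of the 15 synthesis genes past 20 CPM in both libraries, 9 had intervals above 0 in both, namely Acat2, Mvd, Idi1, Fdps, Sqle, Msmo1, Nsdhl, Sc5d and Dhcr7, which run from the start of the pathway to its end. The share of all genes with intervals above 0 in both is not given, so no comparison is drawn from that joint count. Within a library, intervals lay above 0 for 9 synthesis genes in B, beside 19.9% of all genes, and for 10 in C, beside 16.2%. They lay below 0 for 3 in B, beside 47.5% of all genes, and for 2 in C, beside 49.7%. Acat2 was higher in library C, at 41.4, 42.7, 66.2 and 65.4 CPM from the bottom to the top quartile (0.64, interval 0.50 to 0.81), and had 27.5, 23.6, 32.5 and 41.4 CPM in library B (0.57), just short of 1.5-fold. Sc5d was higher in library B, at 25.1, 29.2, 31.9 and 38.3 CPM (0.59, 0.39 to 0.84), and had 0.35 in library C. Mvd had 0.34 in library B and 0.57 in C, and Nsdhl 0.36 in each. Of the middle steps, Idi1 had 0.19 and 0.19 in libraries B and C, Fdps 0.31 and 0.17, Sqle 0.32 and 0.38, and Msmo1 0.32 and 0.18. Ebp was the only synthesis gene with an interval below 0 in both libraries, at -0.50 in B and -0.16 in C, beside a median over all genes of -0.15 in each. Mvk had -0.22 in library B (interval -0.47 to 0.01) and -0.24 in C (-0.46 to -0.04), and Cyp51 had -0.34 in B (-0.53 to -0.16) and -0.12 in C (-0.29 to 0.05).

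The regulators had no call. Insig1 had 39.6 CPM in the top and 38.8 CPM in the bottom quartile of library B (0.03), and 49.1 and 45.6 CPM in library C (0.10). Insig2 had -0.37 in library B and -0.24 in C. Srebf2 and Scap stayed under 20 CPM in both quartiles of both libraries.

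Among the handling genes Npc1 was higher in library B, with 13.1, 24.8, 22.8 and 20.6 CPM from the bottom to the top quartile (0.61, interval 0.34 to 0.96). Its highest level there was in the second quartile, and in library C it had 9.05, 14.1, 15.5 and 12.7 CPM. Npc2 had 2672, 2213, 1939 and 1823 CPM in library B (-0.55) and 3468, 3356, 2292 and 2564 CPM in library C (-0.44), without a call. Soat1 had 92.0, 79.8, 80.6 and 80.5 CPM in library B (-0.19), and 98.9, 88.7, 78.2 and 75.3 CPM in library C (-0.39). Stard4, higher in dividing cells, had 0.15 and 0.10 here.

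**Figure D4:**
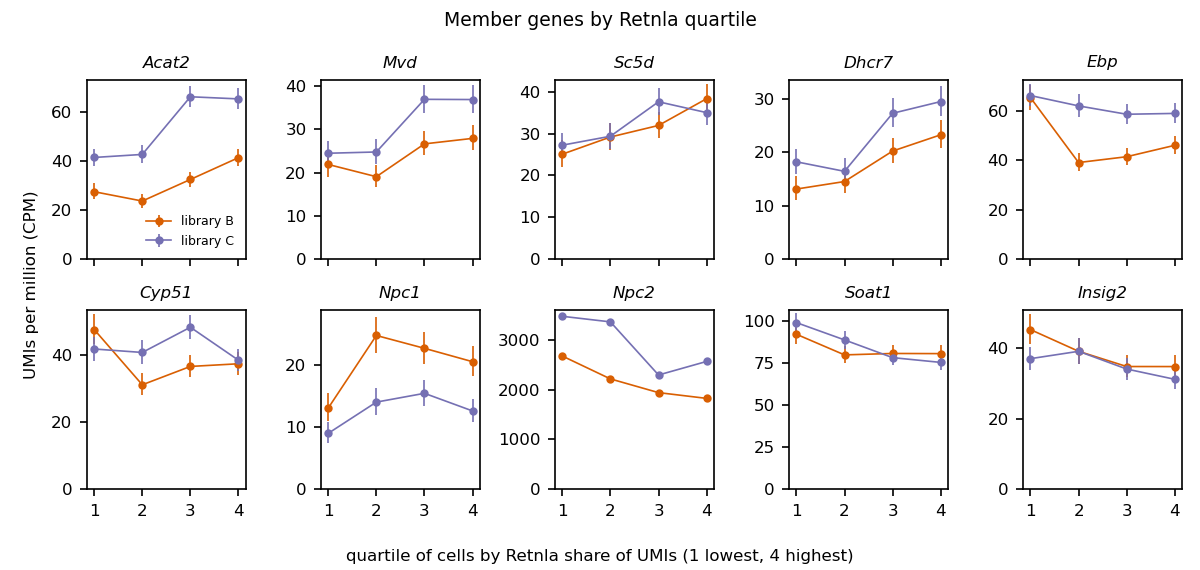
Levels of 10 members in cells of libraries B and C ranked into quartiles by the Retnla share of UMIs, from lowest (1) to highest (4), with exact 95% Poisson intervals; each panel has its own axis from 0. Acat2, Mvd and Dhcr7 step up between quartiles 2 and 3 in both libraries, and Npc2 is highest in quartile 1.

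The lower and upper cut of the Retnla share lay at 0.0639% and 1.64% of UMIs in library B, with 75 and 353 cells within 10% of them, and at 0.0238% and 3.86% in C, with 256 and 1218 cells. The quartiles differed in other respects. Cells had a median of 9196 UMIs in the top and 6635 in the bottom quartile of library B, and 3619 and 3249 in library C. Proliferation markers summed to 603 CPM in the top and 1107 CPM in the bottom quartile of library B, and to 668 and 1106 CPM in library C, while dividing cells made up 28.3% and 26.7% of the cells in B, and 15.1% and 18.2% in C. ATI markers summed to 903 CPM in the top and 2353 CPM in the bottom quartile of library B, and to 1503 and 3140 CPM in library C; transitional markers to 1758 and 4235 CPM, and to 1889 and 3271 CPM. ATII markers summed to 191020 and 139922 CPM in library B, and to 168594 and 135072 CPM in C. Airway secretory markers summed to 199 CPM in the top and 31.6 CPM in the bottom quartile of library B, and to 132 and 18.02 CPM in C. Without dividing cells Dhcr7 had 0.87 in library B and 0.78 in C, and with the same spread of UMIs per cell in both quartiles 0.74 and 0.63. Without the quartile of cells richest in transitional markers, Dhcr7 had 0.66 and 0.60 in libraries B and C, Acat2 0.50 in library C and Npc1 0.10 in library B. With TMM factors Dhcr7 had 0.91 and 0.80, and the genes called, 262 higher and 591 lower in library B and 210 and 480 in C, became 402 and 367, and 297 and 291. Of a list of 14 other sterol genes 3 passed 20 CPM in each library, and 0 were called. Of the fatty acid list Me1, which supplies NADPH, was the only gene called of 9 in library B and 10 in C, at 343 CPM in the top and 174 CPM in the bottom quartile of library B (0.97), and 257 and 124 CPM in library C (1.05).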

How the data were processed

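Single-cell RNA of 10x 3′ libraries was deposited by the authors as a matrix of UMI counts, whole numbers that were not normalised. The submitters' processing notes list bcl2fastq, Cell Ranger 6.0.1, GRCm38 and mm10; cell calling is not given in the sources used here. GENCODE named 52489 of 52636 gene IDs, and the 147 others hold 0.00981% of UMIs. Barcodes under 1000 UMIs or 500 genes, or over 15% mitochondrial UMIs, were removed, which left 36540 of 36584. No doublet caller was run. The alternative without the 5% of cells with the most UMIs stands in for it. Tag libraries were not used here.

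UMIs of each class of cells were added up per gene, turned into CPM and compared as log2 folds with a pseudocount of 1 CPM. Fold intervals are exact conditional intervals of the count ratio, without the pseudocount. The folds, intervals and calls were run on summed counts simulated with Poisson counting error alone. That run held no variation between cells, so it cannot show how the intervals cover such variation. All 29 members are accounted for, and other genes are named where they pass the size rule. Promoters are shown for Idi1 and Dhcr7, each called in both libraries B and C in one of the comparisons, and for Hmgcs1 and Ebp, added after their values were seen. Members, lists and rules were chosen with earlier results of these data known. The tools were scipy 1.17.1 and numpy 2.4.6 under Python 3.11.15, and TMM factors came from edgeR 4.0.16 (R 4.3.3).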

Additional observations from a re-analysis of the deposited data

Results flagged for a closer look

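Some members had counting intervals on opposite sides of 0 in different libraries under the same comparison, and in no case was the difference between libraries tested. Between dividing and other cells Hmgcs1 had a log2 fold of -0.36 in library A, 0.37 in B and 0.63 in C. Pmvk had -0.27, 0.18 and 0.15 in libraries A, B and C, Cyp51 -0.40, 0.41 and 0.61, Msmo1 -0.40, 0.20 and 0.41, and Insig1 -0.27, 0.33 and 0.28. The dividing class of library A is small and mostly cells with 1 such UMI. Between the top and bottom Retnla quartile Pmvk had -0.13 in library B and 0.11 in C. Between cells in the top and bottom quartile of synthesis genes Npc2 had 0.34 in library A, -0.18 in B and -0.33 in C.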

How the results depend on the processing

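No paired analysis was possible because each group has 1 library and the tokens carry no replicate number. On the counts and sums, 65 of the settings tried left the value within 1.5 times or its counting interval, and 46 moved it. Counts and sums have no sign, so they cannot show a change of direction. The median log2 fold of members between Retnla quartiles went from 0.15 to -0.158 in library B at 50 CPM. The median over all genes there was -0.164, so members and all genes hardly differed in that setting. In library C the median of members went from 0.11 to -0.01 among dividing cells alone, beside -0.11 over all genes. The median of members kept its sign in the other settings. For dividing cells of library A the 1 call became 2 with TMM factors, without the 5% of cells with the most UMIs, with no minimum level and with the same spread of UMIs per cell. Of 5591 genes 436 were higher and 111 lower in the main setting. In turn they became 230 and 321 of 5566, 383 and 181 of 5569, 3443 and 2619 of 27018, and 377 and 145 of 5531. The 1 call became 0 at a fold of 2, at 50 CPM and with a pseudocount of 5 CPM. All genes called there were 135 higher and 16 lower of 5591, 105 and 13 of 2713, and 318 and 70 of 5591. The 1 call became 9 when dividing was called after thinning to 1000 UMIs and 18 with at least 2 UMIs. Among all genes 1545 were higher and 569 lower of 5945 after thinning, and 2890 and 937 of 6574 with at least 2 UMIs. The 2 calls of library B became 0 with TMM factors, at a fold of 2 and in the top Retnla quartile alone, 1 at 50 CPM and 4 with at least 2 UMIs. Of 4913 genes 420 were higher and 48 lower in the main setting. In turn these became 252 and 121 of 4845, 211 and 12 of 4913, and 408 and 25 of 4730. At 50 CPM they were 176 and 29 of 2368, and with at least 2 UMIs 822 and 93 of 5096. The 7 calls of library C became 1 with TMM factors or the same spread of UMIs, 4 without Retnla and surfactant protein genes in the totals, at 50 CPM and without the 5% of cells with the most UMIs, 3 with a pseudocount of 5 CPM and 0 at a fold of 2. Of 5032 genes 920 were higher and 174 lower in the main setting. In turn these became 423 and 472 of 4964, 609 and 77 of 4935, 935 and 216 of 5572, and 383 and 83 of 2457. Without the 5% of cells with the most UMIs they were 735 and 160 of 4928. With a pseudocount of 5 CPM they were 766 and 138 of 5032, and at a fold of 2 they were 345 and 39.

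For Retnla quartiles the 3 calls of library B became 0 at a fold of 2 or 50 CPM, and 1 with a pseudocount of 5 CPM or with cells above over cells below the median. Of 4854 genes 262 were higher and 591 lower in the main setting. In turn these became 116 and 189 of 4854, 126 and 312 of 2349, 225 and 484 of 4854, and 104 and 212 of 4734. The 2 calls of library C became 0 at a fold of 2, and 1 at 50 CPM, with a pseudocount of 5 CPM and without the quartile highest in transitional markers. Of 4734 genes 210 were higher and 480 lower in the main setting. In turn these became 103 and 151 of 4734, 103 and 207 of 2241, 191 and 385 of 4734, and 190 and 421 of 4724. For the split by other synthesis genes the 16 calls of library A stayed within 1.5 times in every setting tried. The 0 calls of library B became 1 without Retnla and surfactant protein genes in the totals or without dividing cells, and 4 at 5000 UMIs. The 2 calls of library C became 1 without Retnla and surfactant protein genes, and 0 with TMM factors, at a fold of 2, with a pseudocount of 5 CPM, with cells above over cells below the median, and at 1000 UMIs. The synthesis sums of 1608, 639 and 755 CPM in A, B and C became 2273, 760 and 891 without Retnla and surfactant protein genes in the totals, and 1597, 631 and 734 without the 5% of cells with the most UMIs. Without dividing cells they became 599 in library B and 708 in library C. The cause of these changes was not tested. The settings by Retnla quartile alone, dividing cells alone and at 5000 UMIs were chosen after seeing the data. Members under 20 CPM in both classes took no call under the main rule. Among them were Abca1 (2 and 5 UMIs) and Scap (104 and 124 UMIs) in libraries B and C.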

Other observations

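Of 10 transitional markers, genes of epithelial cells between the ATII and ATI states, 9 reached 20 CPM in the bottom quartile of library A. Of these 9, 4 were lower in the cells richest in synthesis transcripts, beside 0.506% of 5136 genes outside the synthesis list. S100a6 and Sprr1a reached 20 CPM in the bottom quartile alone and so entered the set through the class in which they were high. S100a6, a calcium-binding protein gene, had 18.2 CPM in the top and 98.5 CPM in the bottom quartile of library A (log2 fold -2.37, interval -2.59 to -2.28), and Sprr1a, an envelope protein gene, had 11.3 and 45.5 CPM (-1.91, -2.21 to -1.80). Lgals3 had 116 and 193 CPM (-0.73), and the keratin gene Krt19 had 39.6 and 66.1 CPM (-0.73). Krt8 (-0.15) and Cdkn1a (0.01) had no call. In library C S100a6 had 43.7 and 78.3 CPM (-0.83), Sprr1a 13.3 and 32.2 CPM (-1.22), and Lgals3 -0.43. In library B S100a6 had -0.28, and Sprr1a had 66.4 and 51.6 CPM (0.36). These genes were singled out after their values were seen.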
